A study of Mus musculus with 10 samples.

Results

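The ribosomal protein genes encode the proteins of the cytoplasmic ribosome. They were chosen by symbol alone, as autosomal protein-coding genes of GENCODE named Rpl or Rps followed by digits, with an optional a, l or x, together with Rplp0, Rplp1 and Rplp2. This rule found 75 genes among 20807 autosomal coding genes, and 20732 other genes remained for comparison. Of the 75 genes, 40 belonged to the large subunit (Rpl), 28 to the small subunit (Rps), 3 to the P stalk (Rplp), and 4 were paralogs whose symbols end in l (Rpl3l, Rpl10l, Rpl39l and Rps27l). The genes were spread over 18 autosomes, with 14 of them on chromosome 7.

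Chromatin immunoprecipitation followed by sequencing (ChIP-seq) had been carried out in AB17 cells, which are primary hepatocytes of an Arid1a fl/fl mouse made immortal with SV40 large T antigen and an activated H-Ras. The wildtype (WT) cells had received an adenovirus with GFP (Ad-GFP) and kept the floxed Arid1a, whereas the knockout (KO) cells had received an adenovirus with Cre (Ad-Cre). All groups therefore shared the floxed allele, both oncogenes and an adenoviral infection, and all came from 1 cell line. Lists of peak summits were analysed for 8 of 10 samples: the histone marks H3K9me3 and H3K27me3 in WT and KO cells, and Arid1a, Brg1, Ctcf and Rad21 in WT cells. The reads of the 2 input samples were not analysed here. Each group was 1 library, so no difference has a replicate check and no test was made. Percentages carry exact (Clopper-Pearson) 95% intervals, which cover counting error only.

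Every cell makes ribosomes, and the genes of their proteins are among the most highly transcribed in growing cells. They are short, lack a TATA box in most cases, often start transcription at a C inside a run of pyrimidines, and many carry small nucleolar RNA (snoRNA) genes in their introns. H3K9me3 is a mark of heterochromatin and H3K27me3 is the mark of Polycomb repression. Arid1a and Brg1 belong to SWI/SNF, a complex that moves nucleosomes. Ctcf is a zinc finger protein found at domain borders, where cohesin, the ring complex that holds Rad21, is often found with it.

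The lists held between 70408 (Arid1a) and 143835 (WT H3K9me3) summits, and read depth is unknown. A −log10 q-value, the strength that the peak caller gave to a summit and called its value here, was compared only within a list. Of 9 hepatocyte marker genes, 2 had an Arid1a summit and 3 a Brg1 summit within 2 kb of the start. Alb and Serpina1a had none in any list. H3K27me3 lay at 2 of the 9 in WT and 1 in KO cells, against 24.2% and 20.6% of the other autosomal coding genes. Each factor had a summit at 3 of 4 fibroblast marker genes, though not always at the same 3. Arid1a and Brg1 were each found at 1 of 4 endothelial and 1 of 4 leukocyte markers. Ctcf and Rad21 summits were each found at 4 of the 9 hepatocyte markers. Over the other autosomal coding genes, 36.8% had an Arid1a summit and 41.3% a Brg1 summit. Counts over so few markers cannot decide for or against the hepatocyte label. Peak lists do not show expression, so it could not be checked further.

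To show what lies at these starts, promoters of 9 genes are given, from 250 bases before to 50 bases after the start (RefSeq, GRCm38.p6, 5′ to 3′ on the strand of the gene). RefSeq promoters were at hand for 55 of the 75 genes. Capitals mark the letters CGGAAG on either strand, the core of the site of ETS family factors, and CTTTCC on the strand of the gene, a pyrimidine run. The start is base 251 of each sequence. Rpl26, Rpl35a, Rpl38 and Rplp0 are shown because each has 1 of the strongest summits of a list, the 4 paralogs for their scarcity of summits, and Rps27 as the namesake of Rps27l.
Rpl26 (chr11:68901316-68901615 on the plus strand): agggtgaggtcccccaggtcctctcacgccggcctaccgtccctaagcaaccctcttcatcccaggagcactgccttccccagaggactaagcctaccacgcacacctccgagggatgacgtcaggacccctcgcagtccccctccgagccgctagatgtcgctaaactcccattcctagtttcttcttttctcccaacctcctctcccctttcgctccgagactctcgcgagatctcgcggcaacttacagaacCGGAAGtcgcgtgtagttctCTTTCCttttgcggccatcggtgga
Rpl35a (chr16:33056203-33056502 on the plus strand): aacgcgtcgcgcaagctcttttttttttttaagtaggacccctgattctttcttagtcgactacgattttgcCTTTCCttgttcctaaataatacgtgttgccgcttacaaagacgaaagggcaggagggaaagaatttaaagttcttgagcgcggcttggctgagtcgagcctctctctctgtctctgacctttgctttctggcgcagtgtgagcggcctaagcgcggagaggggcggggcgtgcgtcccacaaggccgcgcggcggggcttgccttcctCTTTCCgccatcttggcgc
Rpl38 (chr11:114668330-114668629 on the plus strand): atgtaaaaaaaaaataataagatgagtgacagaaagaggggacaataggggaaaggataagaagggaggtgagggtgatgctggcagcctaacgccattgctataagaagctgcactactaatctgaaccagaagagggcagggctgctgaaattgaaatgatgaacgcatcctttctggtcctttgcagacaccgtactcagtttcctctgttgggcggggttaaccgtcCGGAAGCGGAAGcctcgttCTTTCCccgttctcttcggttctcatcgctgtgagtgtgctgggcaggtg
Rplp0 (chr5:115559217-115559516 on the plus strand): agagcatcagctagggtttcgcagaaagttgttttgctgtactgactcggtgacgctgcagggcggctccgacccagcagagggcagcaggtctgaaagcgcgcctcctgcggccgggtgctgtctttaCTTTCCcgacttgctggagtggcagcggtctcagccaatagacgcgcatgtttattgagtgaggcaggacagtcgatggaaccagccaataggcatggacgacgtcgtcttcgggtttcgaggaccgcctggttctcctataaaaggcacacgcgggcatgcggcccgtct
Rps27 (chr3:90213599-90213898 on the minus strand): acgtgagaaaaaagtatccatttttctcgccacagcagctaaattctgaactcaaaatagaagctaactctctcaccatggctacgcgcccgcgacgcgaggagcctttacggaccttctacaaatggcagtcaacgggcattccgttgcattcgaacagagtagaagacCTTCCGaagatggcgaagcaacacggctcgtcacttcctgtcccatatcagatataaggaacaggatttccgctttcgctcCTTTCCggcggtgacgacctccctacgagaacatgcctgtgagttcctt
Rps27l (chr9:66945836-66946135 on the plus strand): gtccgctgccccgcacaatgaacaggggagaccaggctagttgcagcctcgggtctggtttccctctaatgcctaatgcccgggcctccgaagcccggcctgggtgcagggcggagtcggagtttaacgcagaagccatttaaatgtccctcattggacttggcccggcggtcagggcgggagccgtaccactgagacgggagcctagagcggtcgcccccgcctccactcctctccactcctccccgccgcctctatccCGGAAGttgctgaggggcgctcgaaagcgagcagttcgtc
Rpl3l (chr17:24727576-24727875 on the plus strand): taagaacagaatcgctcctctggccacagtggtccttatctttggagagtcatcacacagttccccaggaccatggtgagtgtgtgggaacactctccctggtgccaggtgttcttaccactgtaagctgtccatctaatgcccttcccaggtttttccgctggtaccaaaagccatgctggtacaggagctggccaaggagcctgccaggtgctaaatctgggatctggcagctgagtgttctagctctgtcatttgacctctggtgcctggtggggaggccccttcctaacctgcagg
Rpl10l (chr12:66284352-66284651 on the minus strand): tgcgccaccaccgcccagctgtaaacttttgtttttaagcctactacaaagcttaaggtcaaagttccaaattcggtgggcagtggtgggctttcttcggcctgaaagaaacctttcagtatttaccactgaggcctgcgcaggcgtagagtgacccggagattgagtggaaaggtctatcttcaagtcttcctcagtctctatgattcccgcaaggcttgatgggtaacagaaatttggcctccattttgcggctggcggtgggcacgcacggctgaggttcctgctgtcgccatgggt
Rpl39l (chr16:10169978-10170277 on the plus strand): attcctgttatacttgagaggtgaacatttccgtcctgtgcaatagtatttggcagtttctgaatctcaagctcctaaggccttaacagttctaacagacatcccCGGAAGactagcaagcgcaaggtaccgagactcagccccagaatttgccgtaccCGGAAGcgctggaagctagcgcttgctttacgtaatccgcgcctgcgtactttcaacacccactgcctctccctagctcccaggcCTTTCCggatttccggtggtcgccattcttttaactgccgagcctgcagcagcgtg
Rpl38 held 2 copies of CGGAAG in direct succession just before the start and CTTTCC at the start itself. In Rpl26 both came shortly after the start, in the same order. Rpl3l and Rpl10l held neither.

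The letters CGGAAG occurred in 37 of the 55 promoters, or 67.3% (53.3 to 79.3), against 22.3% of the promoters of 15631 other genes. The 57 matches had a median position 53 bases before the start, and 26 of them began between 60 bases before and 20 bases after it. Rps18 held 4 copies, and Rpl37, Rps6, Rps7 and Rps21 held 3 each. CTTTCC was found in 36.4% (23.8 to 50.4) of the promoters, against 13.8%. A start at C followed by 4 further pyrimidines was found in 12 genes, or 21.8% (11.8 to 35), against 2.12%. Within 10 bases of the start on either side, the longest pyrimidine runs were those of Rpl35, with 18 bases, and Rpl7a, with 17. Runs were not followed beyond this window, so their full lengths were not compared. Among promoters that were rich in CpG (at least 55% GC and a CpG ratio of at least 0.6), CGGAAG was still found in 74.2% (55.4 to 88.1) of 31 ribosomal protein genes, against 34.7% of 6906 others. Other letters differed less. GGGCGG, the Sp1 box, was held by 56.4% (42.3 to 69.7) against 48.8% of promoters, AAGATGG, part of the YY1 site, by 14.5% (6.5 to 26.7) against 6.39%, and CCAAT by 29.1% (17.6 to 42.9) against 38.5%, each on either strand. CACGTG, the E-box, was held by 9.09% (3.02 to 20) against 8.09%, the NRF1 site, on either strand, by 5.45% (1.14 to 15.1) against 7.08%, and TATAAA, on the strand of the gene, by 5.45% (1.14 to 15.1) against 8.64%. A match of letters is a description and not a bound site.

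Beyond the promoter letters, the genes differed from others in build. Their median annotated length was 3368 bp, against 17740 bp, and 77.3% (66.2 to 86.2) were at most 5 kb long, against 17.9%. A snoRNA gene lay inside 26 of the 75 genes, or 34.7% (24 to 46.5), against 1.05% of other genes, with 5 in Rpl4 and 4 in Rpl13a. Another coding gene started within 2 kb in 25.3% (16 to 36.7) of cases, against 14.5%. The median GC content at the start was 55.15% in both sets, but the ratio of observed to expected CpG was 0.83 against 0.539. The annotation held 272 pseudogenes named after 54 of the 75 genes. Reads of near-identical copies may be assigned to either place, so summits inside exons are uncertain, and how many this touches was not tested.

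To ask whether SWI/SNF lies at these genes, summits within 2 kb of the outermost annotated start were counted. Arid1a summits were found at 61 genes, or 81.3% (70.7 to 89.4), against 36.8% of other genes. Brg1, the ATPase of the complex, also had summits at 61 genes, or 81.3% (70.7 to 89.4), against 41.3%. Both subunits were present at 54 genes, or 72% (60.4 to 81.8), against 27.7%. Among genes with CpG-rich starts the Arid1a shares were 77.1% of 35 ribosomal protein genes and 57.8% of others, and the Brg1 shares were 91.4% and 63.7%. The gap was thus 44.5 percentage points for Arid1a over all genes and 19.3 among CpG-rich starts.

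The strongest Arid1a and Brg1 summits of the family both lay at Rplp0, the gene of the P stalk protein that binds elongation factors. Their −log10 q-values were 15.2 for Arid1a, 189 bp after the start, and 19.7 for Brg1, 176 bp after it, both at percentile 99.98 of their lists. Rplp0 had no Rad21 summit and no mark summit within 2 kb. Next came Rps20, a protein of the small subunit head, with an Arid1a value of 9.09 at 14 bp after the start, and Rps12, with 8 at 104 bp. For Brg1, Rpl36 had 7.87 and Rpl12, a protein at the base of the stalk, had 7.1. The Rpl12 start lies 55 bp from that of Lrsam1, so its summits cannot be assigned to 1 gene. Over the family, the strongest Arid1a value per gene ran from 1.79 to 15.2 with a median of 3.81, against 3.22 in other genes with a summit, and 22.7% against 4.48% of all genes reached 5.

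**Figure D1:**
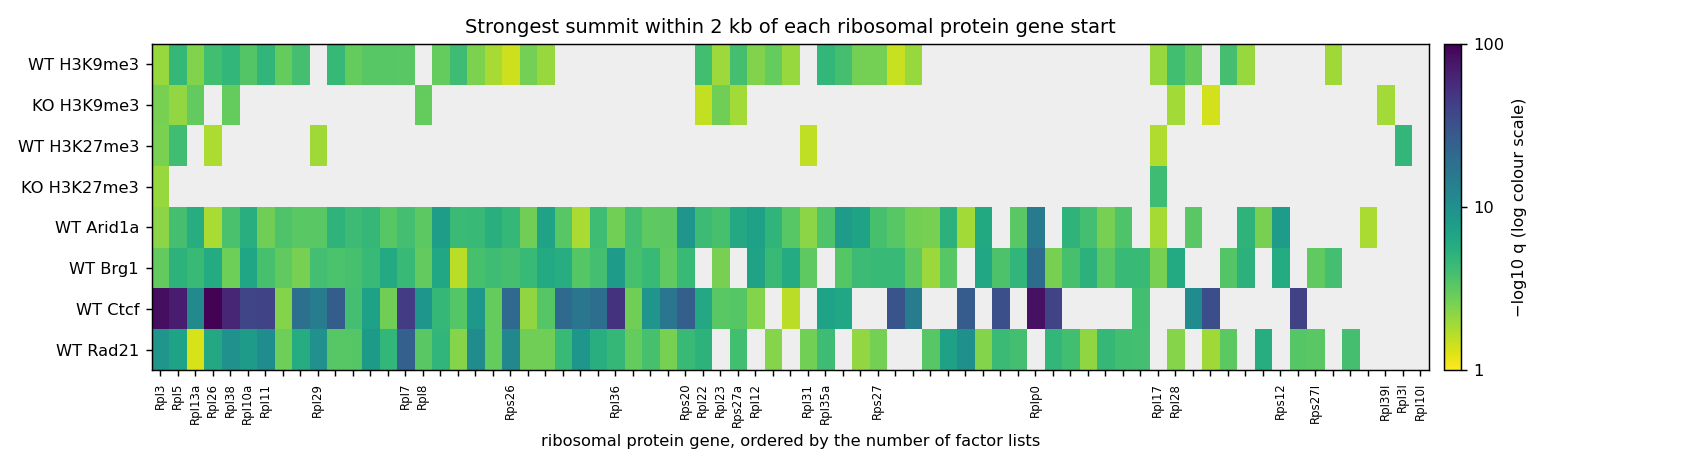
Each column is 1 ribosomal protein gene (73 are drawn, and some are named) and each row 1 peak list, with colours, to be compared within a row, giving the −log10 q of the strongest summit within 2 kb of the start on a log colour scale and grey where there was no summit. The Arid1a, Brg1 and Rad21 rows are filled for most genes, the H3K27me3 rows are nearly empty, and Rpl10l at the right end has no summit in any list.

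Ctcf summits were found at 50 genes, or 66.7% (54.8 to 77.1), against 43.9% of other genes, and Rad21 summits at 58 genes, or 77.3% (66.2 to 86.2), against 52.3%. Where Ctcf was present, the median of the strongest value was 14.5, against 6.76 in other genes. This held for the large subunit, with a median of 18.4, and not for the small subunit, with 6.62. The lowest value was 1.62, and 46.7% of the family reached 5, against 25.5%. Over the whole family Rad21 showed no such difference in strength, with medians of 4.01 and 4.42. The subunits differed here too, with Rad21 medians of 4.92 for the large and 3.8 for the small subunit. A Rad21 value of 5 was reached by 42.5% and 7.14% of their genes, respectively, against 21.8% of other genes. With CpG-rich starts alone, the gaps in the shares of Ctcf and Rad21 closed to within counting error. The Ctcf shares were then 68.6% and 64.7%, and the Rad21 shares 82.9% and 77.7%.

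Rpl26, whose protein binds the 5′ end of the Trp53 mRNA, had the strongest Ctcf summit, at 96.7 and 143 bp before the start. It was followed by Rpl3, a core protein of the peptidyl transferase centre, with 83.7 at 623 bp after the start, and by Rplp0 with 80.8 at 178 bp before it. The Rpl3 summit lies near the start of Syngr1, 534 bp away from that of Rpl3. The strong summits at Rpl5 and Rpl38 are shown as the 61 bases around them (mm10, plus strand), since they hold the Ctcf core letters, given in capitals. These are CC, 3 free bases, AG, 2 free bases and GGC, and both strands were searched.
Rpl5 (chr5:107900453-107900513, −log10 q of 70.7): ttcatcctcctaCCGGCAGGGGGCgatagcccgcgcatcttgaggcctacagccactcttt
Rpl38 (chr11:114668429-114668489, −log10 q of 61): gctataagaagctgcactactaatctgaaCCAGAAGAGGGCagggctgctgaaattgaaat
The Rpl5 summit lay 19 bp before the start and the Rpl38 summit 65 bp before it. In the Rplp0 promoter printed above, the core letters are ccagcagagggc. The 61 bases around the Rpl26 summit, which was stronger than these, held no match.

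Within 50 bases of the summit, the Ctcf core letters were present at 15 of the 74 Ctcf summits near ribosomal protein genes, or 20.3% (11.8 to 31.2), against 14% of 11434 near other genes. Of the 20 summits with a value of at least 20, 8 held them, or 40% (19.1 to 63.9), against 35.2%. Of the 38 summits under 5, 3 held them, or 7.89% (1.66 to 21.4), against 4.75%. In both sets the letters were thus more frequent at the stronger summits, and the sets did not differ beyond counting error. The core letters were present in 12.7% (5.27 to 24.5) of the promoter windows, against 10.4%.

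All 4 factors were present at 32 genes, or 42.7% (31.3 to 54.6), against 17.4% of other genes, and 3 genes had none, or 4% (0.833 to 11.2), against 32.5%. The genes with none were Rpl3l, the heart and skeletal muscle form of Rpl3, and Rpl10l and Rpl39l, which are known from testis. Rpl3l carried 1 H3K27me3 summit in WT cells, with a value of 4.76 at 244 bp after the start and no summit in any other list. Rpl39l carried 1 KO H3K9me3 summit of 1.89, and Rpl10l had no summit of any list. Rps27l, the fourth paralog, had Brg1 (3.06) and Rad21 (3.27) but neither Arid1a nor Ctcf. Rps27, after which it is named, had Arid1a (3.81, at 1801 bp after the start), Brg1 (4.51), Rad21 (2.63) and WT H3K9me3 (2.64). The Rps27 start lies 44 bp from that of Rab13, so the summits there cannot be assigned to 1 gene. Rpl3 itself had a summit in all 8 lists. Like most of the promoters examined in the family, that of Rpl39l held the letters CGGAAG (2 copies). Their presence thus did not go with a factor summit in every gene.

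Within the family, genes with CGGAAG in the promoter had Brg1 in 86.5% (71.2 to 95.5) of 37 cases, and genes without it in 61.1% (35.7 to 82.7) of 18. The Arid1a shares were 81.1% and 77.8%. Among other genes the Brg1 shares were 63% and 35.9%. The intervals within the family overlap in both comparisons, and 55 genes allow no finer statement.

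**Figure D2:**
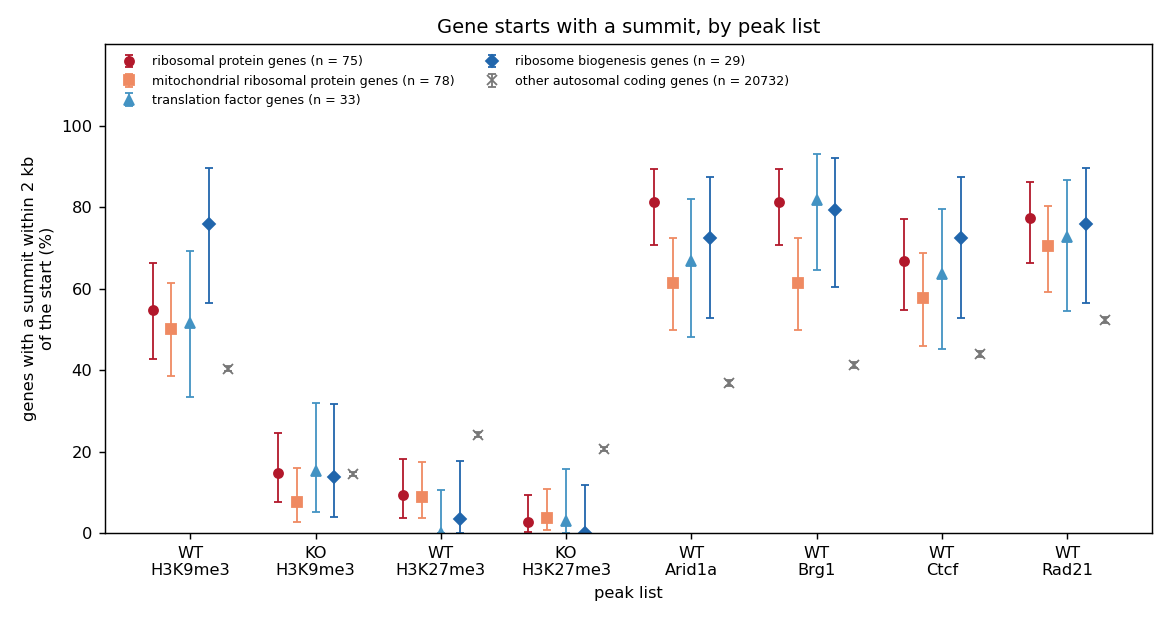
Points give the percentage of genes with a summit within 2 kb of the start in each of 8 peak lists, with exact 95% intervals, for 75 ribosomal protein genes, 3 other gene lists of translation and 20732 other autosomal coding genes. Ribosomal protein genes lie above the other coding genes in the 4 factor lists (81.3% against 36.8% for Arid1a) and under them in both H3K27me3 lists.

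Other genes of protein synthesis were compared. Mitochondrial ribosomal protein genes (78) had Arid1a at 61.5% (49.8 to 72.3) and Brg1 at 61.5% of starts. Translation factor genes (33) had 66.7% (48.2 to 82) and 81.8% (64.5 to 93), and ribosome biogenesis genes (29) had 72.4% (52.8 to 87.3) and 79.3% (60.3 to 92). All 4 factors were present in 19.2% (11.2 to 29.7) of the mitochondrial, 24.2% (11.1 to 42.3) of the translation factor and 41.4% (23.5 to 61.1) of the biogenesis genes. The intervals for Arid1a overlap that of the cytoplasmic family in the last 2 lists and, narrowly, in the mitochondrial list. Within the family, Arid1a was found at 37 of 40 large subunit genes, 92.5% (79.6 to 98.4), and at 22 of 28 small subunit genes, 78.6% (59 to 91.7). Ctcf was at 77.5% (61.5 to 89.2) and 64.3% (44.1 to 81.4), respectively. A further 12 ribosomal protein genes that the rule leaves out, such as the X-linked Rps4x and the differently named Rpsa and Rack1, had Brg1 in 11 cases and Arid1a in 7, and Rpl39 on the X chromosome had no summit.

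To see where the summits lie, their distance from the start was measured. Near ribosomal protein genes, 24.8% (16.9 to 34.1) of 105 Arid1a summits and 25.2% (17.6 to 34.2) of 115 Brg1 summits lay before the start, against 41% and 42.6% near other genes. The median Arid1a summit lay 375 bp after the start, against 139 bp, and the median Brg1 summit 287 bp after it, against 135 bp. In the first 250 bp after the start there were 25.3 Arid1a and 32 Brg1 summits per 100 genes, against 6.67 and 8 in the 250 bp before it. Ctcf and Rad21 were placed differently. Of the Ctcf summits 54.1% (42.1 to 65.7) lay before the start, against 48.7%, and their fullest bin was the last 250 bp before it, with 16 per 100 genes. Of the Rad21 summits 42.3% (32.7 to 52.4) lay before the start, against 41.6%.

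**Figure D3:**
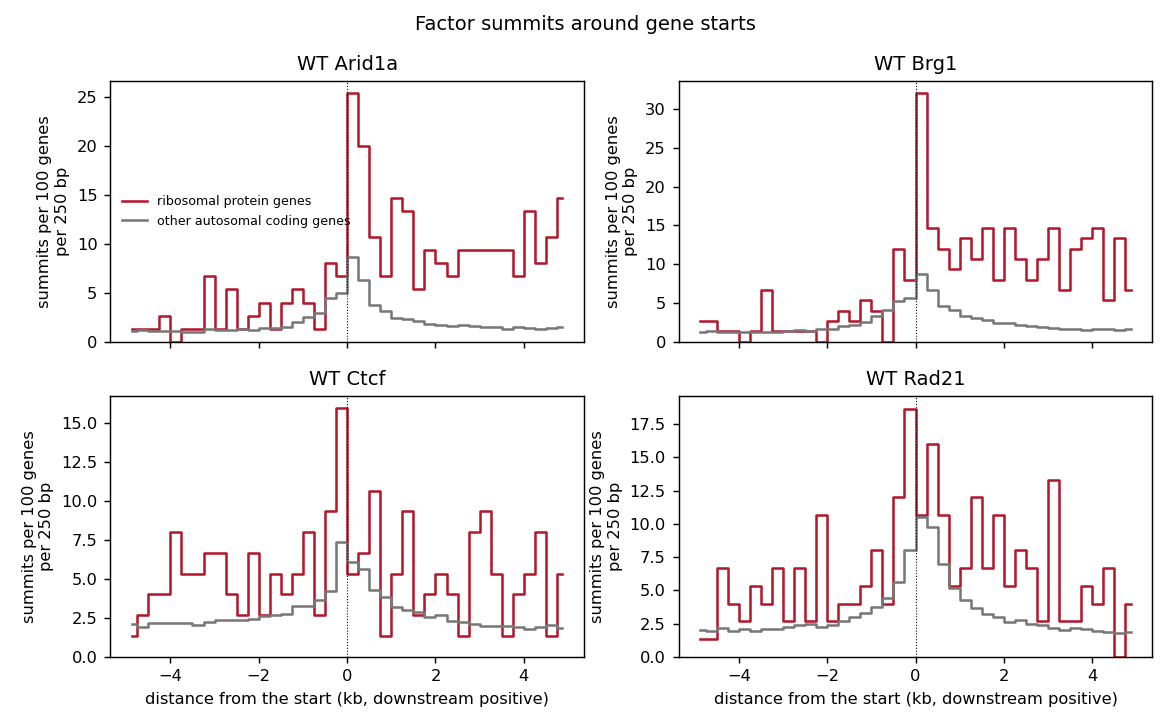
Summits per 100 genes in bins of 250 bp, by distance from the start in kb (positive values lie downstream), for the 4 factors in WT cells. In ribosomal protein genes (red) Arid1a and Brg1 rise at the start, to 25.3 and 32 per 100 genes, and stay above the other genes (grey) over the 5 kb downstream, whereas Ctcf is highest just before the start.

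The Arid1a and Brg1 summits did not end with the gene. Inside the ribosomal protein genes there were 3.66 Arid1a and 4.16 Brg1 summits per 10 kb, against 0.427 and 0.489 in other genes, and against 1.04 and 1.09 in other genes of at most 5 kb. In the 5 kb behind the annotated end there were still 3.04 and 3.49 per 10 kb, against 0.658 and 0.73. From 2 to 5 kb before the start the densities were 0.889 and 0.711, against 0.454 and 0.541. The median Arid1a value was 3.25 inside the genes and 3.26 behind them, against 2.7 over the whole list. For Brg1 it was 3.37 and 3.16, against 2.56. For genes shorter than 2 kb, the region behind the end overlaps the 2 kb counted around the start.

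Counted by gene, 67 of the 75 genes had an Arid1a summit within 5 kb behind the end, or 89.3% (80.1 to 95.3), against 23.8% of other genes. For Brg1 it was 65 genes, or 86.7% (76.8 to 93.4), against 25.5%. Both lay behind 62 genes. Of other genes at most 23.8%, the share with Arid1a, can have both. Rpl28 and Rpl7a, both of the large subunit, had 4 Arid1a summits each behind the end, and Rpl27a, Rpl30 and Rps13 had 4 Brg1 summits each. Another coding gene started in these 5 kb at 22 genes of the family. Without such genes, Arid1a was found behind 88.7% of 53 genes, against 19.6%, and Brg1 behind 86.8%, against 20.8%. Among genes with CpG-rich starts alone, Arid1a lay behind 91.4% (76.9 to 98.2) of 35 ribosomal protein genes and 31.3% of others, a gap about as wide as that over all genes. This view of the gene ends was chosen after the data had been seen.

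Neither subunit lay behind Rpl3l, Rpl10l, Rpl39l, Rpl22 or Rps24, so 3 of the 4 paralogs were again without both. The other lists of translation genes had lower shares. Arid1a lay behind 42.3% (31.2 to 54) of the mitochondrial ribosomal protein genes, 57.6% (39.2 to 74.5) of the translation factor genes and 51.7% (32.5 to 70.6) of the biogenesis genes, each interval ending under the 80.1% at which that of the family begins. The Brg1 shares were 38.5% (27.7 to 50.2), 75.8% (57.7 to 88.9) and 51.7% (32.5 to 70.6), and that of the translation factors overlaps the family. Ctcf lay behind 57.3% (45.4 to 68.7) of the ribosomal protein genes, against 31% of other genes, and Rad21 behind 62.7% (50.7 to 73.6), against 32.4%. Among CpG-rich starts alone, Ctcf lay behind 51.4% (34 to 68.6) of the family and 37.2% of others, a gap within counting error. For Rad21 these shares were 60% (42.1 to 76.1) and 38.7%. In the mitochondrial, translation factor and biogenesis lists Ctcf lay behind 44.9%, 48.5% and 44.8%, and Rad21 behind 37.2%, 51.5% and 55.2%. Among summits of at least 5, Arid1a lay behind 20% (11.6 to 30.8) of the family, against 1.97%, and Brg1 behind 30.7% (20.5 to 42.4), against 2.81%.

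**Figure D4:**
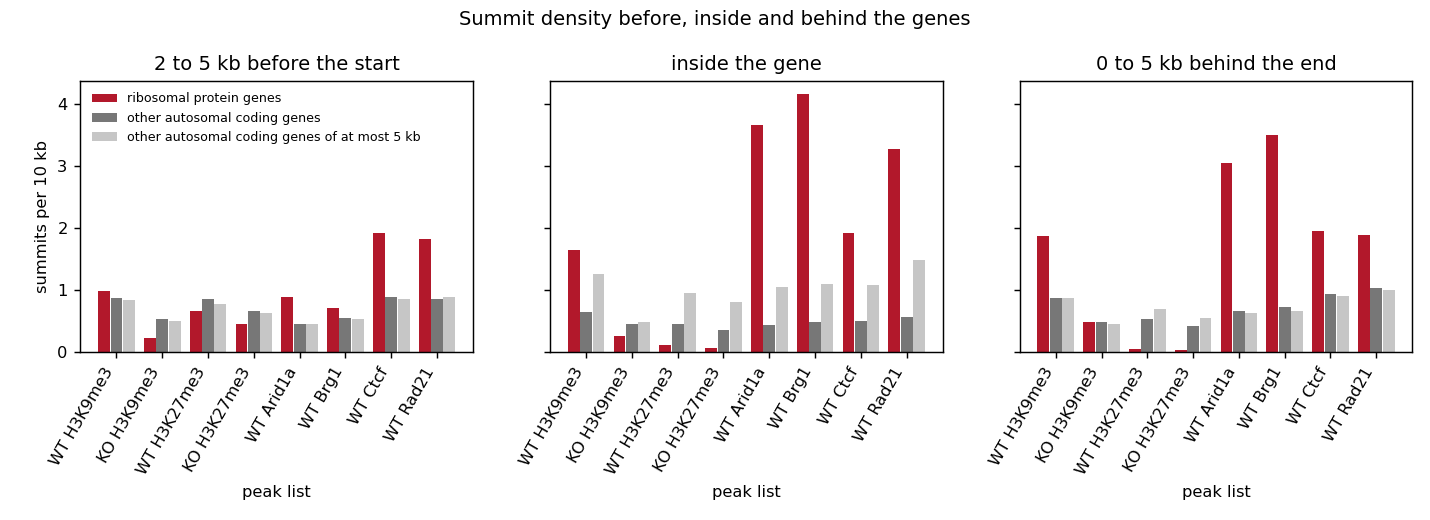
Bars give summits per 10 kb from 2 to 5 kb before the start, inside the gene and within 5 kb behind the end, for each peak list, in ribosomal protein genes (red), other autosomal coding genes (dark grey) and those of at most 5 kb (light grey). Arid1a and Brg1 reach 3.66 and 4.16 per 10 kb inside the ribosomal protein genes and 3.04 and 3.49 behind them, while both H3K27me3 lists fall under the other genes.

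Summits of different factors lay close together. Of the 115 Brg1 summits near the starts, 74.8% (65.8 to 82.4) had an Arid1a summit within 1000 bp, against 55.8% near other genes, and the median distance of the pairs was 295 bp against 310 bp. Of the 104 Rad21 summits, 75% (65.6 to 83) had a Brg1 summit within 1000 bp, against 49%, but 52.9% (42.8 to 62.8) had a Ctcf summit, against 58.6%. Near ribosomal protein genes a Rad21 summit thus had Brg1 beside it more often than near other genes, and Ctcf about as often. Counted from the Brg1 side the gap was within counting error. Of the 115 Brg1 summits, 67.8% (58.5 to 76.2) had a Rad21 summit within 1000 bp, against 63.7%. Brg1 summits were also denser at these genes, and the part of this density was not tested. The share of pairs for Brg1 with Arid1a was 51.3% at 500 bp, and 20.9% when the Arid1a summit had to reach 5.

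To ask what Arid1a loss did to repressive marks at these genes, the WT and KO lists were compared. In WT cells H3K9me3 summits lay at 41 genes, or 54.7% (42.7 to 66.2), against 40.4% of other genes, and in KO cells at 11 genes, or 14.7% (7.56 to 24.7), against 14.5%. The drop of 40 percentage points was larger than counting error, and other genes went the same way. Mitochondrial ribosomal protein genes went from 50% to 7.69%, translation factor genes from 51.5% to 15.2%, and ribosome biogenesis genes from 75.9% to 13.8%. A summit in WT and not in KO was found at 33 genes, or 44% (32.5 to 55.9), against 32.8%. In the mitochondrial, translation factor and biogenesis lists this share was 47.4%, 42.4% and 65.5%, so it was not particular to the family. A summit in KO and not in WT was found at 3 genes, Rpl8, Rpl37 and Rpl39l, or 4% (0.833 to 11.2), against 6.88%, and in both at 8 genes, or 10.7% (4.72 to 19.9), against 7.62%. With 1 library per genotype, Arid1a loss, depth and antibody efficiency cannot be told apart.

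The strongest WT H3K9me3 value per gene had a median of 2.96, against 2.64 in other genes with a summit. The highest WT values were 4.79 at Rpl11, whose protein binds Mdm2 together with Rpl5, 4.76 at Rpl38, known for the patterning of the axial skeleton, and 4.74 at Rpl35a, whose start lies 235 bp from that of Iqcg. Their percentiles in the list ran from 93.8 to 95.8. In KO cells Rpl11 and Rpl35a had no summit within 2 kb, and Rpl38 had 1 of 2.99. The highest KO values were 3.02 at Rpl13a, a protein that can leave the ribosome to silence mRNAs, 2.99 at Rpl8 and 2.99 at Rpl38. The other KO values were 2.72 at Rpl23, 2.57 at Rpl3, 2.1 at Rpl5, 1.89 at Rpl28, Rpl39l and Rps27a, whose product is fused to ubiquitin, 1.53 at Rpl22 and 1.36 at Rpl37. No summit reached 5 at any of the 75 starts, but with 1.42% of other genes in WT and 0.487% in KO reaching it, 75 genes are too few to show a difference. Among CpG-rich starts the order of the WT shares turned, with 48.6% of the family against 55% of others, a difference of -6.44 percentage points (-23.6 to 11) that is within counting error.

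WT H3K9me3 summits and factor summits were found at the same genes in many cases. Genes with an H3K9me3 summit had Arid1a in 90.2% (76.9 to 97.3) of 41 cases and Ctcf in 80.5% (65.1 to 91.2). Genes without one had Arid1a in 70.6% (52.5 to 84.9) of 34 cases and Ctcf in 50% (32.4 to 67.6). For Rad21 the shares were 73.2% (57.1 to 85.8) and 82.4% (65.5 to 93.2), and the intervals overlap for all 3 factors. Over other genes the shares with and without H3K9me3 were 54.4% and 24.9% for Arid1a, 60.2% and 32.9% for Ctcf, and 72.5% and 38.6% for Rad21. Behind the gene ends, WT H3K9me3 lay at 60% (48 to 71.1) of the genes, against 31% of others, and KO H3K9me3 at 21.3% (12.7 to 32.3), against 17.8%. There, 36 genes had a summit in WT and not in KO, or 48% (36.3 to 59.8), against 22.5% of others. The reverse was found at 7 genes and was not counted over the others, so it cannot be compared. Inside the genes the density was 1.65 per 10 kb in WT, against 0.651, and 0.265 in KO, against 0.45. In other genes of at most 5 kb it was 1.25 in WT and 0.481 in KO. Behind the ends the WT density was 1.87, against 0.875 in other genes and 0.87 in the short ones. In WT cells H3K9me3 summits were thus denser behind these genes than behind other genes, as were those of Arid1a and Brg1. WT H3K9me3 lay behind 30.8% (20.8 to 42.2) of the mitochondrial ribosomal protein genes. For translation factor and biogenesis genes it was 45.5% (28.1 to 63.6) and 41.4% (23.5 to 61.1), and both intervals overlap that of the family. With summits of at least 5, the share was 1.33% in the family and in other genes. Inside the ribosomal protein genes the WT density was nearer to that of short genes, and the KO density was not above that of other genes.

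H3K27me3 was rare at ribosomal protein genes, as it was in the other lists of translation genes. In WT cells 7 genes had a summit within 2 kb, or 9.33% (3.84 to 18.3), against 24.2% of other genes, and in KO cells 2 genes, or 2.67% (0.325 to 9.3), against 20.6%. The mark was present in either genotype at the same 7 genes, against 26.9%, and 5 of them had it in WT only, or 6.67% (2.2 to 14.9), against 6.26%. The WT values were 4.76 at Rpl3l, 4.08 at Rpl5, 2.54 at Rpl3, 1.92 at Rpl29, 1.78 at Rpl26, 1.74 at Rpl17 and 1.56 at Rpl31. The KO values were 4.15 at Rpl17 and 2.02 at Rpl3. All 28 small subunit genes were without a summit in both lists, and a count of 0 of 28 allows a share of up to 10.7% by a limit of 3 counts, or 12.3% by the exact interval. Behind the ends the shares were 2.67% (0.325 to 9.3) in WT, against 14.7%, and 1.33% (0.0338 to 7.21) in KO, against 11.8%. The share at the starts remained under that of other genes with CpG-rich starts alone (5.71% against 22.6% in WT). At their starts, mitochondrial ribosomal protein genes had the mark at 8.97% in WT and 3.85% in KO. Translation factor genes had it at 0% and 3.03%, and biogenesis genes at 3.45% and 0%.

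Rpl3 and Rpl5 stood at the top of the family by number of lists. Rpl3 had a summit in all 8 lists, with values of 2.21 for Arid1a, 3.04 for Brg1, 83.7 for Ctcf and 9 for Rad21. Its H3K9me3 values were 2.05 in WT and 2.57 in KO cells, and its H3K27me3 values 2.54 and 2.02. Within their lists, the Ctcf value was at percentile 99.25 and the Rad21 value at 85.17, and the other 6 values were at or under percentile 62.94. Rpl5, which carries the small ribosomal RNA of the large subunit into the ribosome, was missing from the KO H3K27me3 list only. It had values of 3.89 for Arid1a, 5.12 for Brg1, 70.7 for Ctcf and 6.95 for Rad21, and of 4.68 (WT) and 2.1 (KO) for H3K9me3 and 4.08 for WT H3K27me3. Rpl13a, Rpl26 and Rpl38 followed with 6 lists each. Rpl7 and Rps26 were among the genes with the highest Rad21 values, at 24.3 and 11.6, and both also had a Ctcf summit, at 44.4 and 20.9. At Rpl7 this Ctcf summit lay 966 bp and the Rad21 summit 1221 bp before the start. Rdh10 starts 1112 bp from the Rpl7 start, so these summits cannot be assigned to 1 gene. Rpl10a, with 6.6 for Brg1 and 37.9 for Ctcf, was 1 of the 32 genes with all 4 factors.

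The choice of the start mattered for single genes. The outermost GENCODE start lay within 100 bp of a RefSeq start in 41 of 55 genes, but 3553 bp away in Rps24, 2614 bp in Rpl18, 1947 bp in Rps2 and 1425 bp in Rps10. With any annotated start allowed, Arid1a was found at 88% and Brg1 at 90.7% of the family, against 43.7% and 47.6% of other genes.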

How the data were processed

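ChIP-seq summit lists of AB17 cells were used as deposited (mm10, no header lines). Per the labels and methods, the authors aligned reads with Bowtie2, took out reads of low quality (SAMtools) and duplicates (Picard), and called peaks with MACS2 at its default settings against input. Versions are not given in the sources used here. The fifth column was read, from its values, as the −log10 q-value that the authors' MACS2 gave each summit. Every library is 1 sample, so no test was possible.

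Gene starts were the outermost GENCODE vM21 transcript starts. Summit positions were counted within 2 kb of a start with python 3.11.15, numpy 2.4.6 and scipy 1.17.1, and the counting was tested on simulated data. The genes, lists and alternatives were chosen with earlier results of these data known. Named genes were the 3 strongest per list, genes without a factor summit, paralogs ending in l with their namesakes, up to 10 genes per repressive mark and those in most lists; results for 2 of the 75 genes are not reported here by name. Genes with the most summits behind the end, motif copies or snoRNA genes were chosen after their values were seen. The RefSeq start and the counts behind gene ends were added after the data had been seen.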

Additional observations from a re-analysis of the deposited data

How the results depend on the processing

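Of 104 alternatives to 20 results, 76 moved a value by less than its counting error, 26 moved it further and 2 reversed it; the causes were not tested. Values are differences from other genes in percentage points unless stated. WT H3K9me3 at the start reversed to -1.42 with summits of at least 5 and to -6.44 among CpG-rich starts, both within counting error. CpG-rich starts also gave 19.3 for Arid1a, 27.8 for Brg1, 3.86 for Ctcf and 5.15 for Rad21. Summits of at least 5 gave 18.2 for Arid1a, 14.8 for Brg1, 3.55 for Rad21 and -9.52 for KO H3K27me3, which had -20.3 with any annotated start and -20.8 without neighbouring starts. KO H3K9me3 had -8.27 within 5 kb. The H3K9me3 difference of KO from WT was -56 within 5 kb and 0 with summits of at least 5, since none reached it. Brg1 summits paired with Arid1a fell to 51.3% at 500 bp and 20.9% with strong partners, and Rad21 summits paired with Ctcf to 35.6% and 34.6%. Behind the ends, summits of at least 5 gave 0.00206 for WT H3K9me3, -2.12 for WT and -2.81 for KO H3K27me3, 18 for Arid1a, 27.9 for Brg1 and 15.6 for Rad21. H3K27me3 there had -16.1 (WT) and -13.9 (KO) against short genes, and -14.5 (WT) without further starts. The 34 alternatives on RefSeq starts and gene ends were chosen after seeing the data. No paired analysis was possible because each group holds 1 library.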
